A study of Homo sapiens with 12 samples.

Results

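The threonine tRNAs with the anticodon CGT were examined in U251, a human glioblastoma cell line. Every entry whose tRNA name starts with tRNA-Thr-CGT was taken from the lists of methylated cytosines of 6 libraries. This gave 2 of the 15 listed tRNAs, tRNA-Thr-CGT-4-1 and tRNA-Thr-CGT-2-1, with 4 of the 59 listed sites and 17 of the 234 entries. Libraries are labelled Si (3) or NC (3). The series' design text contrasts wild-type with NSUN3-knockdown cells, so the Si libraries are taken to be the knockdown; the labels give no agent, dose or time. All of these libraries were treated with AlkB, an enzyme that strips methyl groups which stop reverse transcription, and then with bisulfite. The other 6 libraries, of the glioblastoma line T98G, were not analysed here. Nothing in the labels says that libraries of a group came from separate cultures. The p-values of tests across libraries thus measure the spread between these libraries, which may be technical. Those of Fisher's exact test cover counting error only.

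Threonine tRNAs deliver threonine to the ribosome, and those with the anticodon CGT read the codon ACG. Different methyltransferases act on different cytosines of the same tRNA. NSUN6 is known to methylate the cytosine at position 72, near the end of the acceptor stem, in threonine and cysteine tRNAs, and its recognition is known to need the CCA tail and the unpaired base at position 73. NSUN2 is known to methylate cytosines at the border of variable loop and T stem, position 48 among them. NSUN3, the knocked-down enzyme, is known for the wobble cytosine of tRNA-Met in mitochondria. tRNAs that share an anticodon but differ elsewhere in sequence are called isodecoders.

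Both isodecoders are shown in full, since a single base tells them apart and it lies beside a measured cytosine. Capitals mark the cytosine at position 48, the base at position 49 that differs, and the cytosine at position 72. The sequences are those of the deposited annotation, as DNA, 5′ to 3′, without the CCA tail.
tRNA-Thr-CGT-2-1: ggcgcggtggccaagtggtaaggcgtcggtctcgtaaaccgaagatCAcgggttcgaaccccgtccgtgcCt
tRNA-Thr-CGT-4-1: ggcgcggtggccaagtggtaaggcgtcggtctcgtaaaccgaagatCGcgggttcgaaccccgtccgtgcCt
The change from tRNA-Thr-CGT-2-1 to tRNA-Thr-CGT-4-1 is A49G, a standard tRNA number that is counted back from the last base, position 73; it is base 48 of the printed sequence, counted from the 5′ end. The other 71 of 72 bases are identical. Base 49 stands opposite T at position 65 in the T stem, so that this pair is A with T in tRNA-Thr-CGT-2-1 and the wobble pair G with T in tRNA-Thr-CGT-4-1 (U in the RNA). The acceptor end is the same in both, with G at position 1 opposite C at position 72 and T at position 73. Reads that do not cover base 49 carry no base that separates the isodecoders, and 24 bases up to the 3′ end follow it, the cytosine at position 72 among them. The sources used here do not say how the authors placed such reads.

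On hg38, tRNA-Thr-CGT-2-1 is the gene TRT-CGT2-1 on chromosome 16, bases 14285893 to 14285964 of the plus strand, with position 48 at base 14285939 and position 72 at base 14285963. tRNA-Thr-CGT-4-1 is TRT-CGT4-1 on chromosome 17, bases 31550074 to 31550145 of the plus strand, with position 48 at base 31550120 and position 72 at base 31550144. Both correspond, by start and end, to a gene in RefSeq's GRCh38.p14 table, and neither overlaps another gene of that table. The nearest annotated genes were MIR193BHG, the host gene of the microRNA MIR193B, 15417 bases from TRT-CGT2-1, and MIR193A, 9851 bases from TRT-CGT4-1. The table holds 5 TRT-CGT genes, and 3 of them had no entry in the lists.

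Each isodecoder contains 21 cytosines, of which 2 were listed, positions 48 and 72. The other 19 have no entry in any library. The lists hold no site under 30 reads or under a level of 10.0%, so an unlisted cytosine has an unknown level and was not counted as unmethylated. The level is the share of reads with an unconverted cytosine, and none of the 17 entries had a read with another base. Coverage at these entries was 30 to 68 reads, within a range of 30 to 210 over all listed sites. Exact binomial 95% intervals are given for single libraries and cover counting error only.

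At position 72, the cytosine of the NSUN6 class, the isodecoders stood far apart in the NC libraries. tRNA-Thr-CGT-4-1 was methylated in 32 of 39, 39 of 44 and 46 of 47 reads in NC replicates 1, 2 and 3, levels of 82.1%, 88.6% and 97.9%. tRNA-Thr-CGT-2-1 was methylated in 10 of 33, 8 of 33 and 4 of 30 reads, levels of 30.3%, 24.2% and 13.3%. The levels of the isodecoders did not overlap, and neither did their intervals in any NC library. In replicate 1, where they came closest, the interval was 15.6% to 48.7% for tRNA-Thr-CGT-2-1 and 66.5% to 92.5% for tRNA-Thr-CGT-4-1. The means were 22.6% ± 8.60 and 89.5% ± 7.95 (SD, n = 3), a difference within libraries of -66.9 ± 16.5 percentage points (SD, n = 3).

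At position 48, the cytosine of the NSUN2 class, the order of the isodecoders was the opposite. tRNA-Thr-CGT-2-1 was methylated in 36 of 37, 37 of 39 and 33 of 35 reads, levels of 97.3%, 94.9% and 94.3% in NC replicates 1, 2 and 3. tRNA-Thr-CGT-4-1 was methylated in 37 of 59, 38 of 57 and 49 of 68 reads, levels of 62.7%, 66.7% and 72.1%. The levels again did not overlap, and the means were 95.5% ± 1.60 and 67.1% ± 4.69 (SD, n = 3). The difference within libraries was 28.3 ± 6.18 percentage points (SD, n = 3), higher for tRNA-Thr-CGT-2-1 in 3 of 3 libraries.

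The exact two-sided sign-flip permutation test gave p = 0.25 for either position, the smallest that 3 libraries allow and above the threshold of 0.05 whatever the values. Fisher's exact test within each library compares the reads of the isodecoders in that library and covers counting error only. Adjusted over the 6 tests by Benjamini-Hochberg, its p was 2.33e-05, 3.31e-08 and 1.77e-14 at position 72 in NC replicates 1, 2 and 3. It was 7.75e-05, 0.00108 and 0.00897 at position 48. The assignment of reads to near-identical tRNAs is the limit of this contrast and was not tested.

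**Figure D1:**
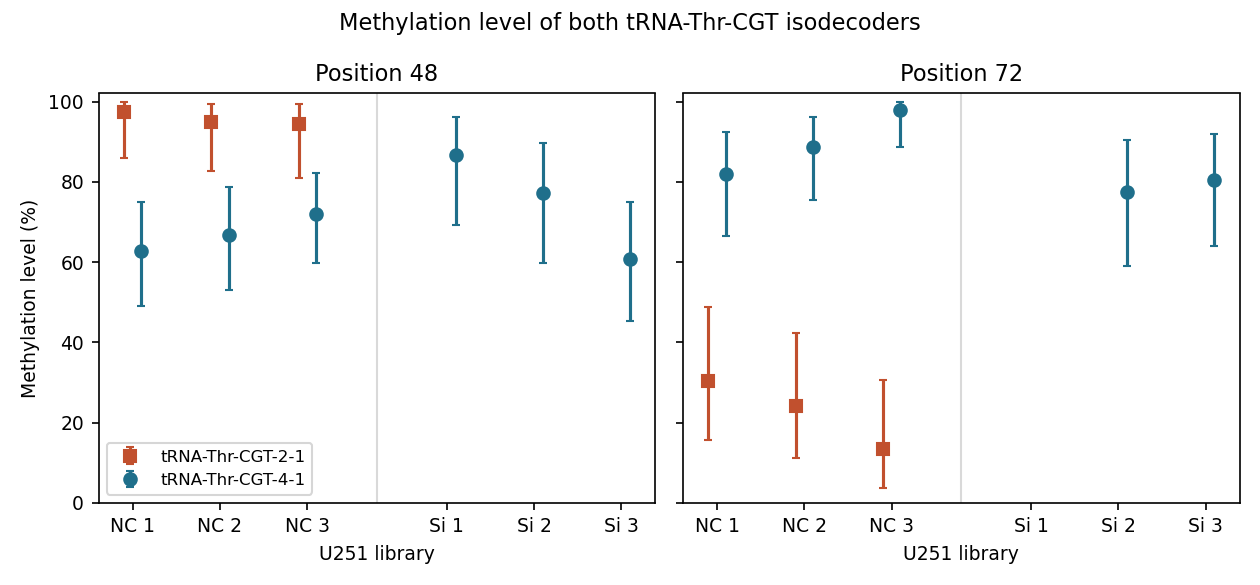
Methylation level in percent (vertical axis) at position 48 (left) and position 72 (right) of tRNA-Thr-CGT-2-1 (squares) and tRNA-Thr-CGT-4-1 (circles) in each U251 library (horizontal axis); bars are exact binomial 95% intervals, and a missing point is an unlisted site. In NC, tRNA-Thr-CGT-2-1 lies above tRNA-Thr-CGT-4-1 at position 48 and below it at position 72.

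The profile along each tRNA differed accordingly. In tRNA-Thr-CGT-2-1, the level at position 72 minus that at position 48 was -67.0, -70.6 and -81.0 points in NC replicates 1, 2 and 3. The mean was -72.9 ± 7.24 points (SD, n = 3; exact sign-flip permutation p = 0.25, the smallest possible). In tRNA-Thr-CGT-4-1, position 72 lay above position 48 by 19.3, 22.0 and 25.8 points in NC and by 0.276 and 19.7 points in Si replicates 2 and 3. Its mean difference was 17.4 ± 9.92 points (SD, n = 5), with position 72 higher in 5 of 5 libraries. The exact sign-flip permutation p was 0.0625, the smallest that 5 libraries allow, and 0.25 after adjustment over the 4 within-library contrasts. In Si replicate 2 the positions were level, at 77.4% and 77.1%. The reads behind both positions come from the same tRNA and may be partly the same reads.

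Among the other listed tRNAs, position 72 had an entry only in tRNA-His-GTG-1-4, at 58.9% ± 5.47 in NC (SD, n = 3). Of the 14 listed tRNAs that could be numbered, 10 have C at position 72, and 3 of these were listed there. The threonine tRNAs are the 2 of the 10 with T at position 73. tRNA-His-GTG-1-4 has A there, and its NC mean at position 72 lay between the 22.6% of tRNA-Thr-CGT-2-1 and the 89.5% of tRNA-Thr-CGT-4-1. Which enzyme methylates position 72 in these cells was not tested. At position 48, 7 other tRNAs were listed in all NC libraries, with mean levels from 10.1% to 86.2% and a median of 64.7%. tRNA-Thr-CGT-2-1 lay above all 7 of them and tRNA-Thr-CGT-4-1 above 4; no test was made of this order.

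The next comparison asked whether methylation of the threonine tRNAs differed between Si and NC. Only tRNA-Thr-CGT-4-1 could be compared, since tRNA-Thr-CGT-2-1 had no entry in the Si libraries. Neither of its sites passed the test. Position 72 was methylated in 24 of 31 reads in Si replicate 2 and 29 of 36 in Si replicate 3, levels of 77.4% and 80.6%, and was unlisted in Si replicate 1. The NC levels were 82.1%, 88.6% and 97.9% in replicates 1, 2 and 3. The interval of Si replicate 3, 64.0% to 91.8%, covered the levels of NC replicates 1 and 2. An exact two-sided permutation test of the levels gave p = 0.2, where 2 libraries against 3 allow 0.1 at the least. Of the 31 sites tested below, 21 were lower in Si, this one among them. No count was made of sites whose Si and NC levels do not overlap. The mean was 79.0% ± 2.22 in Si (SD, n = 2) and 89.5% ± 7.95 in NC (SD, n = 3), a difference of -10.5 ± 4.85 points (SE).

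Position 48 had 86.7%, 77.1% and 60.9% in Si replicates 1, 2 and 3, from 26 of 30, 27 of 35 and 28 of 46 reads. These lie on both sides of the NC levels, which ran from 62.7% to 72.1%. The mean was 74.9% ± 13.0 in Si and 67.1% ± 4.69 in NC (SD, n = 3), a difference of 7.75 ± 8.00 points (SE). The spread between the Si libraries was wider than this difference.

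In the edgeR quasi-likelihood test over the 31 sites listed in at least 2 libraries of each group, the log2 odds ratio of methylation, Si against NC, was -1.24 at position 72, the lowest of all tested sites. Position 72 ranked only 4 by unadjusted p, and its adjusted p was 0.653. At position 48 the log2 odds ratio was 0.42, with an adjusted p of 0.95. The median over the tested sites was -0.11, and 1 of 31 sites, or 3.23%, passed, position 48 of tRNA-iMet-CAT-1-1; that call was lost without NC replicate 1, 2 or 3 and without Si replicate 1 or 2. The count of passing threonine sites was 0, with none at an unadjusted p under 0.05 in the edgeR test and none past the adjusted threshold with limma, quasi-binomial regression or Fisher's exact test. Without NC replicate 3 the log2 odds ratio at position 72 was -0.65, and without NC replicate 1 it was -1.88. At position 48 it was 0.065 without Si replicate 1 and 1.09 without Si replicate 3.

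**Figure D2:**
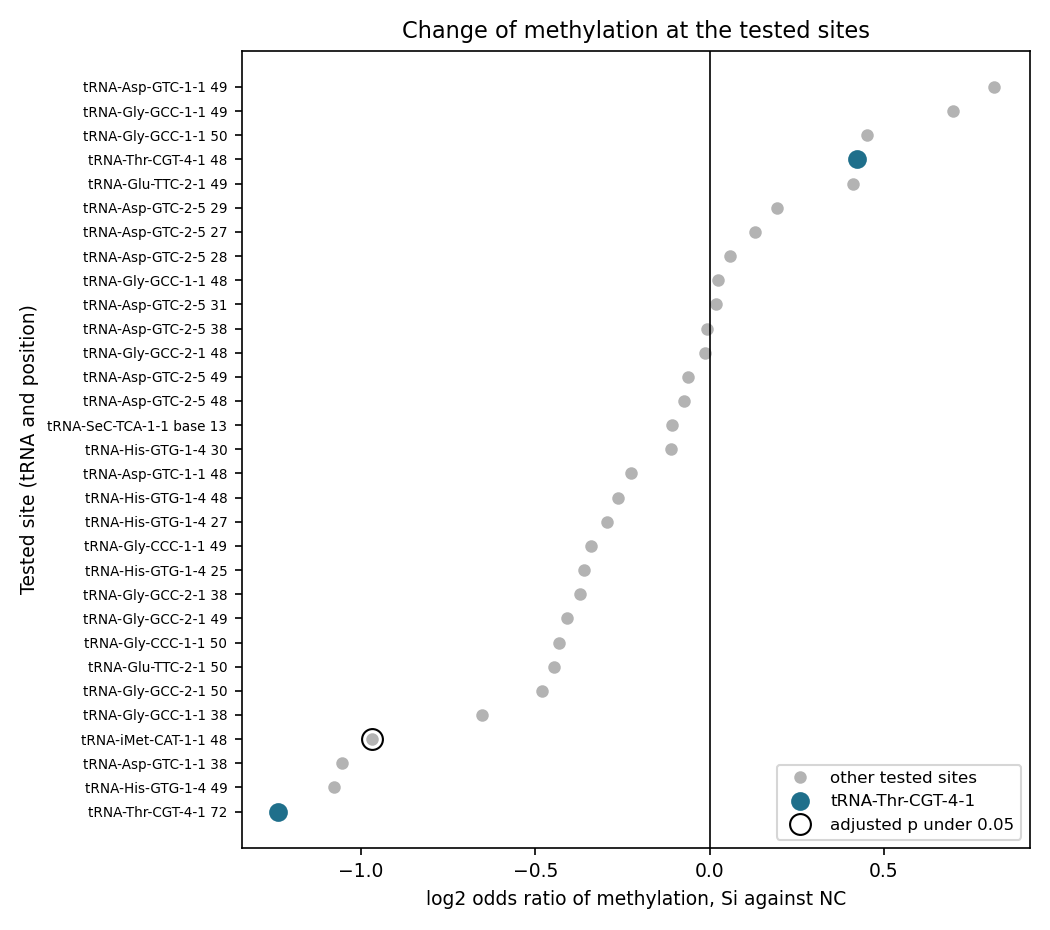
Log2 odds ratio of methylation, Si against NC (horizontal axis), for each of the 31 tested sites (vertical axis, tRNA and position), with tRNA-Thr-CGT-4-1 in blue and a ring around the site with an adjusted p under 0.05. Position 72 of tRNA-Thr-CGT-4-1 lies at -1.24 and position 48 at 0.42, and neither passed.

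The gap between the positions of tRNA-Thr-CGT-4-1 was also compared. Position 72 minus position 48 averaged 22.4 ± 3.26 points over the 3 NC libraries and 9.98 ± 13.7 over 2 Si libraries (SD). The difference, Si minus NC, was -12.4 ± 9.89 points (SE; exact two-sided permutation p = 0.2, where 3 libraries against 2 allow 0.1 at the least). The change at position 72 was thus not shown to differ from that at position 48. Without Si replicate 2 the difference was -2.69 points, and without Si replicate 3 it was -22.1.

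Since the isodecoders can share reads, their listed reads were also summed, a step chosen after seeing the data. The summed levels were 58.3%, 61.0% and 64.9% at position 72 in NC replicates 1, 2 and 3, from 42 of 72, 47 of 77 and 50 of 77 reads. At position 48 the summed NC levels were 76.0%, 78.1% and 79.6%. No like sum could be made in Si, where tRNA-Thr-CGT-2-1 is unlisted and the listed reads are those of tRNA-Thr-CGT-4-1 alone. Setting the summed levels of Si against those of NC therefore says nothing of a change.

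Had tRNA-Thr-CGT-2-1 stayed under 30 reads in Si, at most 29 of its reads would be missing from each Si library at each position. In Si replicate 1, position 72 of tRNA-Thr-CGT-4-1 is unlisted as well, so no range was made there. The summed level at position 72 would then be 24 of 60 reads at the least and 88.3% at the most in Si replicate 2, and 44.6% to 89.2% in Si replicate 3, ranges that hold all 3 summed NC levels. A site unlisted for its level and not for its coverage could lack more reads. The files therefore do not give the direction of change at position 72 for the isodecoders together.

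**Figure D3:**
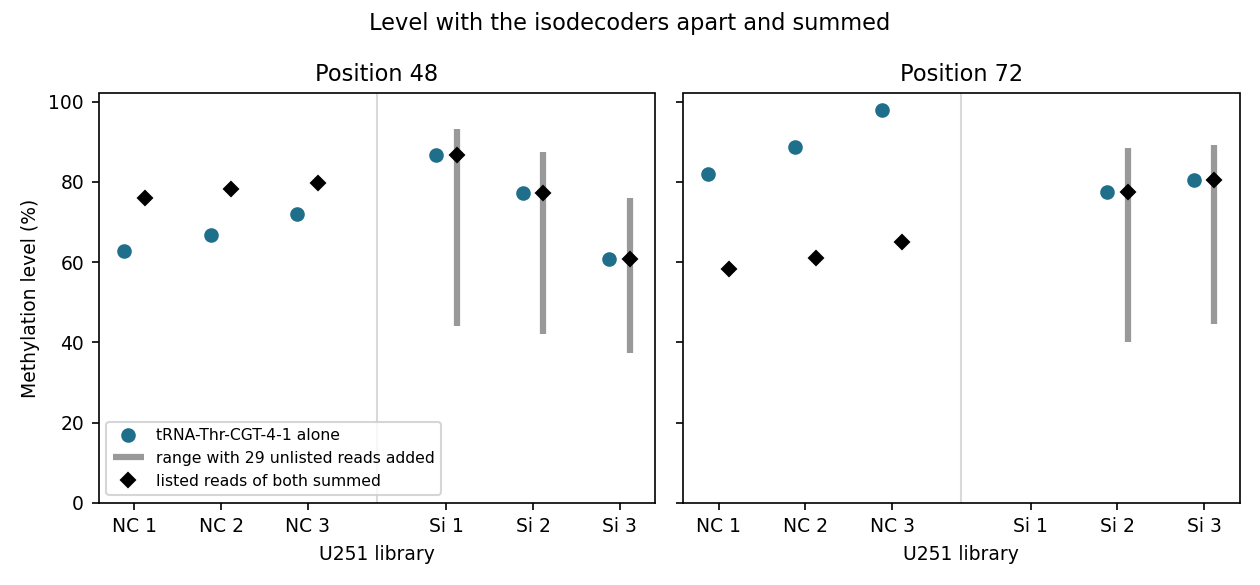
Methylation level in percent (vertical axis) by U251 library (horizontal axis) at position 48 (left) and 72 (right), for tRNA-Thr-CGT-4-1 alone (circles) and for the listed reads of both isodecoders summed (diamonds, which in Si hold tRNA-Thr-CGT-4-1 alone); grey bars span the levels possible in Si if 29 unlisted reads of tRNA-Thr-CGT-2-1 were all unmethylated or all methylated. At position 72 the NC diamonds, at 58.3% to 64.9%, lie within both grey bars.

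Fewer reads of the threonine tRNAs were listed in Si. At position 48, tRNA-Thr-CGT-4-1 had 59, 57 and 68 reads in NC and 30, 35 and 46 in Si. At position 72 it had 39, 44 and 47 reads in NC and 31 and 36 in Si replicates 2 and 3. tRNA-Thr-CGT-2-1 had 37, 39 and 35 reads at position 48 and 33, 33 and 30 at position 72 in NC, close to the lowest listed coverage of 30, and no entry in Si. Coverage was compared over the 9 tRNAs listed in all libraries, each by its best covered site and relative to these 9. In edgeR's quasi-likelihood test tRNA-Thr-CGT-4-1 fell to 0.674-fold in Si, a log2 ratio of -0.57 with an adjusted p of 0.0103. The tRNAs called in either direction were 66.7% of those compared, and 33.3% were called lower. Without Si replicate 1 the log2 ratio was -0.37 and the adjusted p 0.0864, so the call rests on that library. Coverage here is a relative read count from filtered lists, and whether the amount of the tRNA changed was not tested. In bulk libraries, less of the tRNA per cell and fewer cells that hold it cannot be told apart.

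Summed over the isodecoders, the listed reads at position 48 numbered 96, 96 and 103 in NC and 30, 35 and 46 in Si. With 29 reads added to each Si library for the unlisted tRNA-Thr-CGT-2-1, the Si sums would be 59, 64 and 75, still below every NC sum. The ratio, relative to the same 9 tRNAs, was then 0.717-fold. No p-value is given for it, since the 29 reads are an assumed constant that has no spread between libraries. This ratio was added after seeing the data and holds only if coverage, and not level, kept tRNA-Thr-CGT-2-1 off the Si lists.

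**Figure D4:**
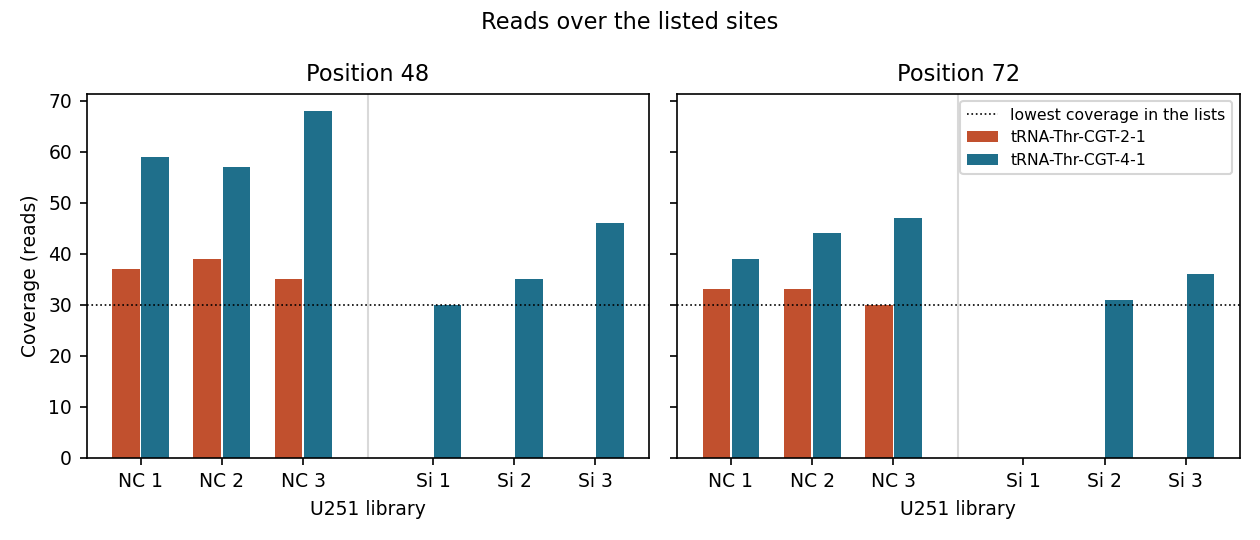
Reads over position 48 (left) and position 72 (right) of tRNA-Thr-CGT-2-1 (red) and tRNA-Thr-CGT-4-1 (blue) on the vertical axis, in each U251 library (horizontal axis); a missing bar is an unlisted site, and the dotted line marks the lowest coverage in the lists, 30 reads. tRNA-Thr-CGT-4-1 has 57 to 68 reads in NC and 30 to 46 in Si at position 48.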

How the data were processed

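Small RNA was enriched, treated with AlkB, converted with bisulfite and made into size-selected libraries, per the labels' protocols. Per the submitters' processing notes, the tool cutadapt 1.9.3 and the build hg38 were used; the sources used here name no aligner, site caller, filter or treatment of duplicate reads. The authors deposited 1 site list per library, holding read counts, the level as a fraction, its bounds and p-values; bounds and p-values entered no test. A cytosine that escapes conversion looks methylated. The lists are filtered, so library depth is unknown.

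Levels were recomputed from the counts as unconverted reads over coverage less reads with another base, and differed from the deposited fraction by rounding. Standard positions put the anticodon at 34 to 36 and count bases from 48 to 73 back from the 3′ end. The quasi-likelihood fit of edgeR 4.0.16 (R 4.3.3) took every site with entries in 2 or more libraries of Si and of NC; it modelled unconverted and converted read counts, a separate intercept for each library, and a dispersion without a trend. An unlisted library entered a site's fit without reads. Benjamini-Hochberg adjustment ran over the 31 sites, with a threshold of 0.05. Coverage per tRNA was fitted with edgeR after TMM scaling among 9 tRNAs. Alternatives used limma 3.58.1, DESeq2 1.42.0, quasi-binomial regression and Fisher's exact test; exact permutation tests, two-sided, were enumerated in Python 3.11.15 with numpy 2.4.6, pandas 2.3.3 and scipy 1.17.1. The fits were run on simulated data with planted changes larger than those of tRNA-Thr-CGT-4-1. These runs do not show whether changes of its size would be found. All sites of tRNAs named tRNA-Thr-CGT are named, with other sites at position 72, and position 48 in other tRNAs as a range. The members, comparisons and lists were chosen with earlier results of these data known. Sample titles gave the groups and replicate numbers.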

Additional observations from a re-analysis of the deposited data

How the results depend on the processing

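The contrasts between isodecoders and positions kept their sign under every alternative run. Fisher's exact test on reads summed over libraries (counting error only) passed for all 4, at -67.1 points (tRNA-Thr-CGT-2-1 minus tRNA-Thr-CGT-4-1, position 72), 28.1 (position 48), 18.7 (position 72 minus 48, tRNA-Thr-CGT-4-1) and -72.6 (tRNA-Thr-CGT-2-1). In the contrasts between positions the reads may be partly the same, which Fisher's test ignores, so there it adds no support. An unpaired exact permutation test of the 5 libraries gave 17.4 points with an unadjusted p = 0.00794. It allows a smaller p than sign-flips but ignores that both positions come from the same library, so it adds no support. Leaving out a library gave -74.5 to -58.1, 25.2 to 31.4, 15.3 to 21.7 and -75.8 to -68.8 points. With listed reads of the isodecoders summed, chosen after seeing the data, the values for Si against NC were a log2 odds ratio of 1.22 at position 72 and -0.36 at position 48, and 26.5 points for the gap between positions. Their signs are opposite to those of tRNA-Thr-CGT-4-1 alone by construction, since tRNA-Thr-CGT-2-1 enters the NC sums and is unlisted in Si, so they say nothing of a change. Leaving out a library moved these results for tRNA-Thr-CGT-4-1 alone from -1.88 to -0.65, from 0.065 to 1.09 and from -22.1 to -2.69 points without a change of sign. The count of 1 passing site became 0 with limma and 0 with quasi-binomial regression, and ran from 0 to 1 with a library left out; the cause was not tested. The log2 ratio of coverage ran from -0.78 to -0.37 with a library left out. The labels do not say whether same-numbered libraries are paired. Their deviations correlated at 0.062, 0.26 and -0.38, of which 1 exceeds 0.1, and these few values cannot decide it. With the replicate block, 1 site passed and the log2 odds ratio was -1.93 at position 72 (adjusted p = 0.118) and 0.42 at position 48 (adjusted p = 0.709), the gap -13.9 points over 2 pairs and the log2 ratio of coverage -0.57 (adjusted p = 0.00195). A minimum of 40 reads left no value for either isodecoder contrast, for position 72 minus 48 in tRNA-Thr-CGT-2-1, for the gap, for both sites of tRNA-Thr-CGT-4-1 or for its coverage, and position 72 is not listed in all 6 libraries. Where 1 Si library was left out at position 72, the lone other was assumed to vary like the other libraries. With 30 to 68 reads an entry, counting error limits every level.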

Other observations

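The lists also show how reads were spread along and between the isodecoders. In NC replicates 1, 2 and 3, tRNA-Thr-CGT-2-1 held 37 of 96, 39 of 96 and 35 of 103 reads of both isodecoders at position 48, and 33 of 72, 33 of 77 and 30 of 77 at position 72. Coverage of position 72 relative to position 48 was 0.892, 0.846 and 0.857 in tRNA-Thr-CGT-2-1 and 0.661, 0.772 and 0.691 in tRNA-Thr-CGT-4-1 in these libraries. In Si replicates 2 and 3 the ratio in tRNA-Thr-CGT-4-1 was 0.886 and 0.783. In NC the library with the highest level of tRNA-Thr-CGT-4-1 at position 72, replicate 3 at 97.9%, had the lowest of tRNA-Thr-CGT-2-1, 13.3%, and the library with the lowest of the one, replicate 1 at 82.1%, had the highest of the other, 30.3%. With 3 libraries this is a description, and no relation was tested.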
